A study of Rattus norvegicus with 4 samples.

Results

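Exosomes shed by hypoxic H9c2 cells were compared with the hypoxic cells that shed them, across all 765 rat mature miRNAs of the deposited table. H9c2 is a cardiomyoblast line derived from rat heart. Both materials were profiled by small RNA-seq, in which short RNAs are ligated to adaptors, amplified and counted as reads, with 1 library a side, so every difference below describes these libraries and carries no test. The reads of each miRNA were divided by the miRNA total of their library, and the ratio of this share in exosomes to that in cells was the measure compared. Of the 765 miRNAs, 337 were identified (10 reads or more) in either library, 331 in cells, 144 in exosomes and 138 in both. Where both libraries held a miRNA, a ratio above 2 was called enriched in exosomes and a ratio below 0.5 depleted.

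The hypoxic cells had been kept for 48 h in a chamber with an oxygen absorber (AnaeroPack). Their exosomes were pelleted from the culture medium by ultracentrifugation after removal of cells and debris. A normoxic pair of libraries, cells kept in air with carbon dioxide and their exosomes, served as a second look at each ratio in another condition. All 4 materials shared a medium whose fetal bovine serum had been cleared of exosomes by ultracentrifugation, and all came from 1 clonal cell line and not from heart tissue. Of 16 rows for the muscle miRNAs miR-1, miR-133, miR-206, miR-208 and miR-499, hypoxic cells held 2, miR-499-5p with 169 reads and miR-206-3p with 20 reads, and the rows of miR-1, miR-133 and miR-208 were listed at 0.

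miRNAs are short RNAs, cut from hairpin precursors by Drosha and Dicer, that guide Argonaute proteins to matching sites in mRNAs, mainly through their seed, bases 2 to 8. Exosomes are vesicles that form inside endosomes and are released when these fuse with the plasma membrane. They carry miRNAs to other cells, and proteins that bind short motifs or the 3′ end are described as sorting some miRNAs into vesicles and holding others back.

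Mature sequences were found in RefSeq (GRCr8) for 689 of the 765 rows, and for 127 of the 138 miRNAs present in both libraries. The sequences below are those on which the comparison turned, with the seed in capitals. The miR-146 pair shares its seed and 17 bases from the 5′ end, and only the first named was enriched:
miR-146a-5p: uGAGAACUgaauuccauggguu
miR-146b-5p: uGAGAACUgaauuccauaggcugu
The let-7 pair shares the seed of a family with low ratios, of which let-7f-5p had the lowest and let-7i-5p the highest:
let-7f-5p: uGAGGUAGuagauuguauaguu
let-7i-5p: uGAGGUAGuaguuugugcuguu
The next pair was enriched to nearly the same degree and is read from opposite strands of a single locus:
miR-378a-3p: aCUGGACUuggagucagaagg
miR-3557-5p: gCCUUCUGacuccaaguccagu
Of 5 further sequences, 3 belonged to abundant enriched miRNAs, and the last 2 to the miRNA that dominated the cells and to an abundant miRNA that was not identified in exosomes:
miR-22-3p: aAGCUGCCaguugaagaacugu
miR-129-5p: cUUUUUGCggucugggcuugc
miR-423-5p: uGAGGGGCagagagcgagacuuuu
miR-21-5p: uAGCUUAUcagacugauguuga
miR-20a-5p: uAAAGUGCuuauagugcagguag
Another 3 were among the lowest ratios, and the last of these share a seed:
miR-29a-3p: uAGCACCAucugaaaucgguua
miR-125a-5p: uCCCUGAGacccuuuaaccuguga
miR-125b-5p: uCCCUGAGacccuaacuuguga

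In that assembly miR-146a-5p lies at chr10:28350053-28350074 and miR-146b-5p at chr1:255144874-255144897. The gene of miR-22-3p is at chr10:60805387-60805408, that of miR-423-5p at chr10:62412317-62412340 and that of miR-21-5p at chr10:71902653-71902674. miR-129-5p can come from 2 loci, chr3:100657448-100657468 and chr4:58589716-58589736, and the table does not separate them. miR-378a-3p (chr18:57128925-57128945, minus strand) and miR-3557-5p (chr18:57128924-57128945, plus strand) overlap.

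The libraries differed in how much of their sequence was miRNA. On the RPM scale the exosome library stood for 12353415 reads, of which 108860 or 0.881% (95% exact binomial interval 0.876% to 0.886%) were in miRNA rows. The cell library stood for 13285239 reads, of which 3578371 or 26.9% (26.9% to 27.0%) were in miRNA rows. Shares remove this difference in yield, and more vesicles cannot be told apart from more miRNA in each of them. The 10-read minimum amounts to 0.00919% of the exosome reads but 0.000279% of the cell reads. A miRNA below 0.00459% of the cell reads, with fewer than 5 reads to be expected in exosomes at an equal share, could therefore be seen in exosomes only if it was enriched. Intervals of ratios are 95% exact intervals that cover counting error only, since PCR reads without molecular identifiers are not independent molecules.

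Most of the exosome reads came from miRNAs that together held a small part of the cell reads. Of the 138 miRNAs in both libraries, 62 (44.9%) were enriched, 44 (31.9%) were depleted and 32 lay within 2-fold. The 62 enriched miRNAs held 5.003% of the cell reads and 76.5% of the exosome reads. The 44 depleted miRNAs held 76.8% of the cell reads and 6.79% of the exosome reads. The 32 within 2-fold held about the same part of both libraries, 14.99% and 16.6%. Ratios ran from 0.0192 for let-7f-5p to 489 for miR-486, with a median of 1.51. Of the 62, the interval lay wholly above 2 for 55, and of the 44 it lay wholly below 0.5 for 39. The members nearest the thresholds were miR-186-5p at 2.04, miR-674-5p at 1.93, let-7d-3p at 0.510 and miR-452-5p at 0.444.

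The enriched count is raised by the minimum. Of the 62 enriched miRNAs, 29 had fewer than 5 reads to be expected and had to be enriched to be seen. Among the 125 cell miRNAs for which 20 or more exosome reads were expected at an equal share, and which could be seen on either side, 22 (17.6%) were enriched, 25 (20%) lay within 2-fold, 44 (35.2%) were depleted and 34 (27.2%) were not identified in exosomes. In that set lower shares in exosomes were thus more frequent than higher ones. Across the 138, Spearman's rho between the ratio and the cell share was -0.70, a value to which the minimum and the shared cell share both contribute.

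**Figure D1:**
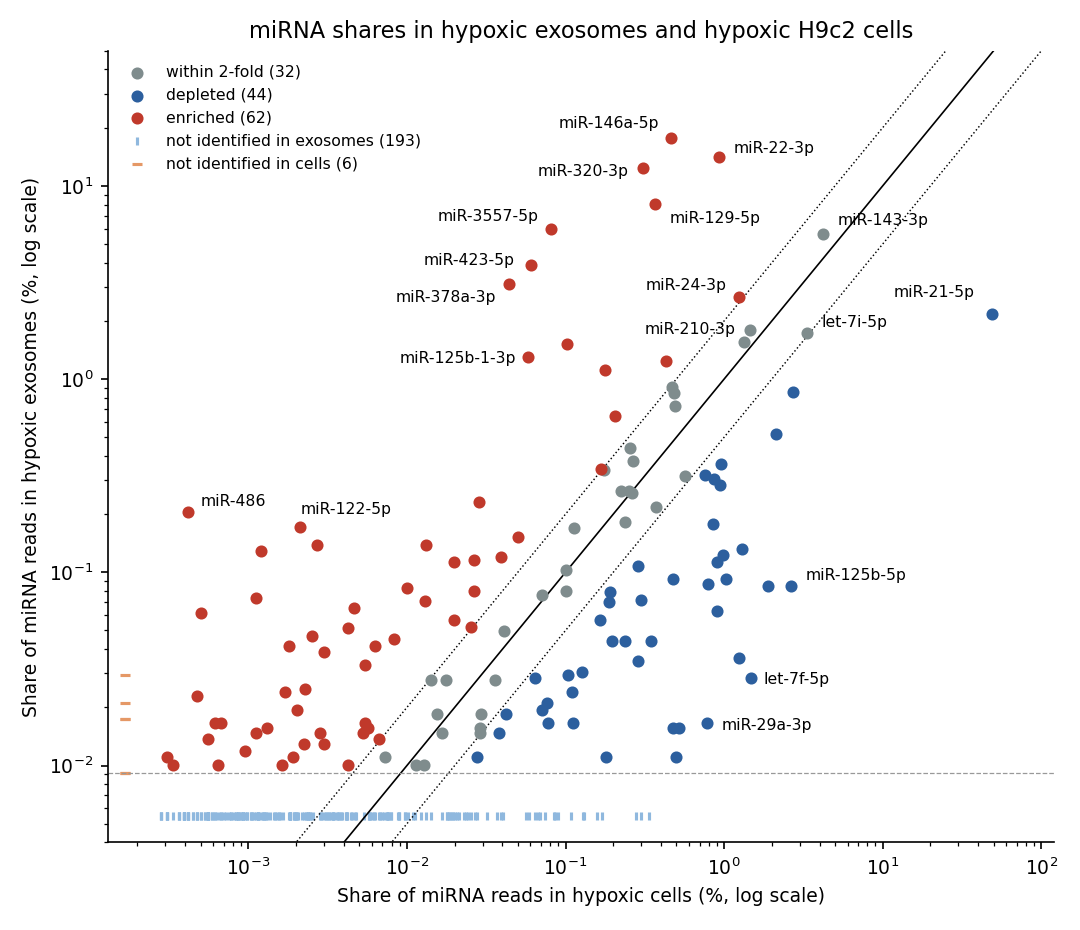
Share of miRNA reads in hypoxic cells (x axis, %, log scale) against the share in hypoxic exosomes (y axis, %, log scale), 1 point per miRNA, with equality as a solid line, 2-fold as dotted lines and the 10-read minimum of the exosome library as a dashed line. The enriched miRNAs reach 17.6% of the exosome reads, miR-21-5p stands alone at 48.5% of the cell reads, and the ticks along the bottom are the 193 miRNAs identified in cells and not in exosomes.

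The leading miRNAs of exosomes and cells were largely different. miR-146a-5p, which is induced by NF-κB and represses Irak1 and Traf6, had 16643 reads (0.465%) in cells and 19162 reads (17.6%) in exosomes, and was the most abundant miRNA of exosomes with a ratio of 37.8 (37.1 to 38.6). miR-22-3p, a miRNA prominent in muscle and linked to cardiac hypertrophy in mice, had 33101 reads (0.925%) in cells and 15270 reads (14.0%) in exosomes, a ratio of 15.2 (14.9 to 15.5). miR-320-3p, which is made without Drosha, had 11004 reads (0.308%) and 13436 reads (12.3%), a ratio of 40.1 (39.1 to 41.2). These 3 miRNAs came from the upper ranks of the cell library but made up a much larger part of exosomes. miR-129-5p, best known from neurons, had 13123 reads (0.367%) in cells and 8768 reads (8.05%) in exosomes, a ratio of 22.0 (21.4 to 22.6). The 12 most abundant miRNAs held 79.1% of the exosome reads and 72.2% of the cell reads, and both top 12 lists shared 5 members, miR-21-5p, miR-143-3p, let-7i-5p, miR-210-3p and miR-24-3p. Of the top 12 of exosomes 8 were enriched, and of the top 12 of cells 7 were depleted.

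miR-21-5p, a miRNA prominent in stressed heart and in fibroblasts, held no such place in exosomes. It had 1736715 reads (48.5%) in hypoxic cells and 2374 reads (2.18%) in hypoxic exosomes, a ratio of 0.0449 (0.0431 to 0.0468). In the normoxic pair the ratio was 0.0454 (0.0407 to 0.0505). The cell library was the more concentrated, and the effective number of miRNAs (the inverse of the summed squared shares) was 4.11 in cells and 11.8 in exosomes. The other shared leaders kept closer to equal shares. miR-143-3p, a smooth muscle miRNA, had 149373 reads (4.17%) in cells and 6160 reads (5.66%) in exosomes, a ratio of 1.36 (1.32 to 1.39). miR-210-3p, the miRNA most directly induced by HIF-1 in low oxygen, had 52093 reads (1.46%) and 1961 reads (1.80%), a ratio of 1.24 (1.18 to 1.29). let-7i-5p had 118940 reads (3.32%) and 1890 reads (1.74%), a ratio of 0.522 (0.499 to 0.547). miR-24-3p had 44448 reads (1.24%) and 2904 reads (2.67%), a ratio of 2.15 (2.07 to 2.23).

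The highest ratios belonged to miRNAs that were rare in the cells. miR-486, which is made from the Ank1 gene in red blood cell precursors and in muscle, had 15 reads in cells and 223 reads in exosomes, a ratio of 489 (290 to 888). miR-127-3p, an imprinted miRNA of the Dlk1-Dio3 region, had 18 and 67 reads, a ratio of 122 (71.9 to 219). miR-193b-3p had 43 and 141 reads, a ratio of 108 (76.1 to 155). The counts behind these 3 are small in cells, and their intervals span from about 2-fold to 3-fold. miR-122-5p, the liver miRNA, had 76 and 187 reads, a ratio of 80.9 (61.6 to 107). miR-760-3p had 97 and 150 reads, a ratio of 50.8 (39.1 to 66.3). All of these, from miR-486 to miR-760-3p, had fewer than 5 exosome reads expected at an equal share. They could be seen in exosomes only if enriched, so the read minimum by itself ties high ratios to scarcity in cells here. Higher in the cells and still strongly enriched was miR-423-5p, with 2169 reads (0.0606%) in cells and 4243 reads (3.90%) in exosomes, a ratio of 64.3 (61.0 to 67.7).

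Some of the enriched rows overlap in sequence. miR-378a-3p, a miRNA made from an intron of Ppargc1b and tied to mitochondrial metabolism, had 1574 reads (0.0440%) in cells and 3395 reads (3.12%) in exosomes, a ratio of 70.9 (66.8 to 75.3). miR-3557-5p, which is its reverse complement over 21 bases, had 2916 reads (0.0815%) and 6514 reads (5.98%), a ratio of 73.4 (70.3 to 76.7). miR-378a-3p reads were 0.540 of miR-3557-5p reads in cells and 0.521 in exosomes, so this pair kept nearly its proportion. miR-3591, complementary to miR-122-5p over 20 bases, was 0.526 of it in cells and 0.428 in exosomes, with a ratio of 65.7 (44.4 to 98.6), and miR-9a-5p was 0.711 of miR-9b-3p in cells and 0.75 in exosomes. There were 19 antisense pairs (16 or more shared bases) among the identified miRNAs, 7 of them with both partners in both libraries. The other 4 of the 7 did not keep their proportion. For miR-3588, miR-3574 and miR-3549, 5.72, 0.730 and 0.517 exosome reads were expected at an equal share. Beside the exosome reads of their partners, the read minimum let these miRNAs be seen only with a raised proportion. miR-29a-3p and miR-3556a, with 846 and 1026 reads expected, could have shifted either way. miR-3588 was 0.00200 of miR-125b-5p in cells and 0.174 in exosomes, miR-3574 0.000461 and 0.00918 of miR-210-3p, miR-29a-3p 0.825 and 0.0584 of miR-3556a, and miR-3549 0.279 and 0.962 of miR-193a-5p. Counts as unequal as those of miR-125b-5p and miR-3588 in cells show that the table kept some partners apart, but whether the counting used strand is not given in the sources, so partners with like counts may hold each other's reads.

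**Figure D2:**
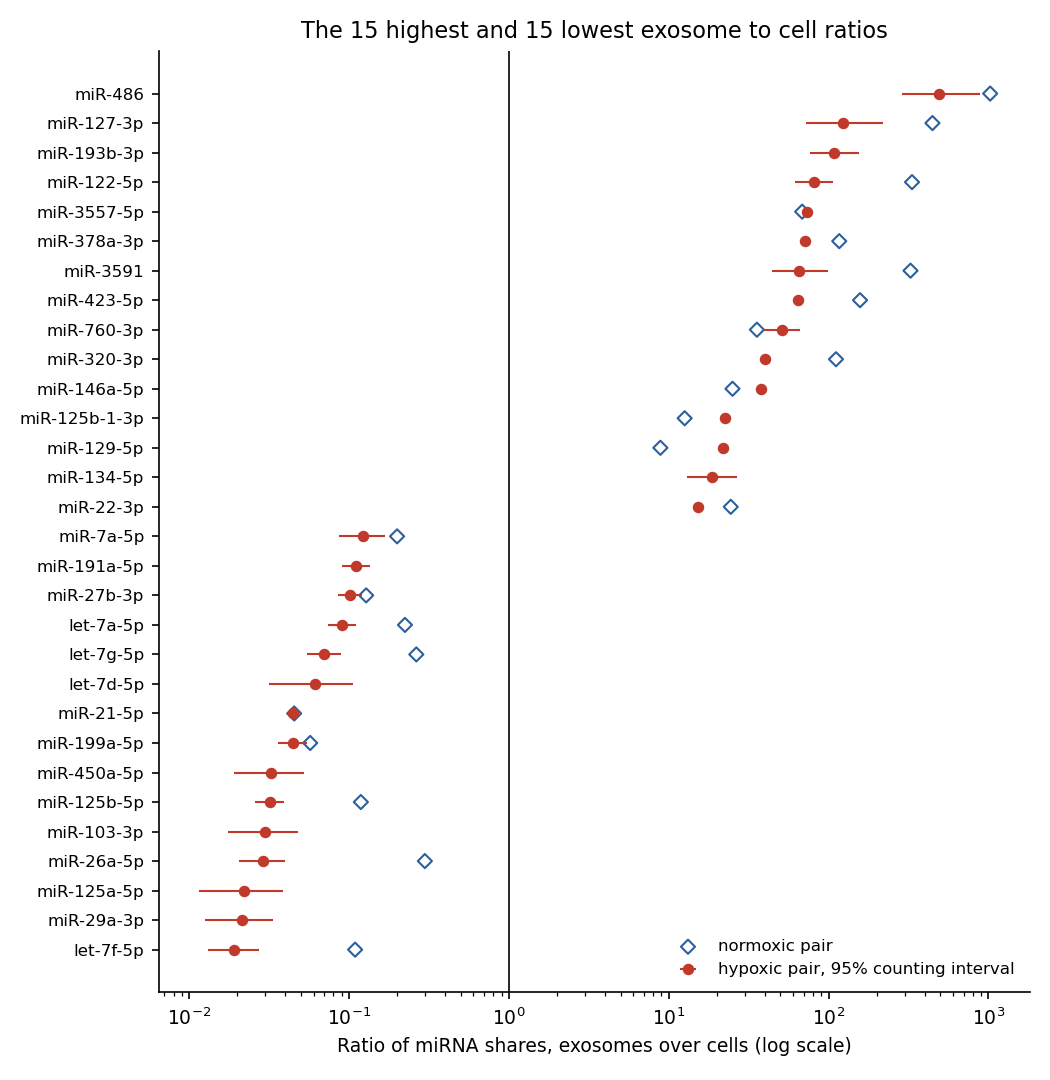
Ratio of the share in exosomes to that in cells (x axis, log scale) for the 15 highest ratios (50 or more exosome reads) and the 15 lowest, with the hypoxic pair in red with 95% counting intervals and the normoxic pair as open diamonds where both its libraries held the miRNA. The diamonds of the lower group lie below 1. In the upper group those of miR-146a-5p, miR-22-3p, miR-129-5p, miR-320-3p and miR-125b-1-3p, which could have lain on either side, are above 1, while the read minimum allowed the others only above 1.

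Depleted miRNAs included the lowest ratios of families that were abundant in cells. let-7f-5p had 53038 reads (1.48%) in cells and 31 reads (0.0285%) in exosomes, a ratio of 0.0192 (0.0131 to 0.0273). miR-29a-3p, a repressor of collagen mRNAs, had 27807 reads (0.777%) and 18 reads (0.0165%), a ratio of 0.0213 (0.0126 to 0.0336). miR-125a-5p had 17789 reads (0.497%) and 12 reads (0.0110%), a ratio of 0.0222 (0.0115 to 0.0387). Each of these was among the abundant miRNAs of the cells and just above the minimum in exosomes. miR-26a-5p had 44333 reads in cells and 39 in exosomes, a ratio of 0.0289 (0.0206 to 0.0395). miR-103-3p, which targets Dicer1 mRNA in human and mouse cells, had 18600 and 17 reads, a ratio of 0.0300 (0.0175 to 0.0481). miR-125b-5p had 93894 and 92 reads, a ratio of 0.0322 (0.0260 to 0.0395). The remaining members of the 15 lowest, miR-450a-5p, miR-199a-5p, miR-21-5p, let-7d-5p, let-7g-5p, let-7a-5p, miR-27b-3p, miR-191a-5p and miR-7a-5p, had ratios from 0.0328 to 0.122.

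The cell-only miRNAs were mostly too scarce to be expected in exosomes. There were 193 of them, with a median of 80 cell reads and 3.17% of the cell reads in all. At an equal share 126 would have given fewer than 5 exosome reads, so that their class cannot be told. Another 22 would have given 5 to 10 reads, which places their ratio below 2, and 45 would have given 10 or more. Of the 45, 17 would have given 50 or more. The highest of these was miR-3596d, with 11999 cell reads where 365 exosome reads were expected, a share at least 36.5 times lower against the 10-read minimum. It is complementary to let-7f-5p over 20 bases. miR-20a-5p of the miR-17 to 92 cluster, a regulator of E2F mRNAs in human cells, had 10730 cell reads and a share at least 32.6 times lower. miR-30c-5p, which represses Ctgf in heart cells of rat, had 9920 reads and a share at least 30.2 times lower. The next were miR-450b-5p with 6072 reads (at least 18.5 times lower), miR-17-5p with 5627 (17.1), miR-16-5p with 4688 (14.3), miR-23b-3p with 4586 (14.0) and miR-322-5p with 3873 (11.8), which completed the 8 miRNAs at least 10 times lower. A further 7, miR-26b-5p, miR-196a-5p, let-7e-5p, miR-466c-5p, miR-374-5p, miR-98-5p and miR-140-5p, had 2312 to 3196 cell reads and shares at least 7.03 to 9.72 times lower. All 193 were also listed at 0 in normoxic exosomes, whose 10-read minimum was higher, 0.0735% of its 13598 miRNA reads.

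In the other direction 6 miRNAs, with 0.104% of the exosome reads, were identified in exosomes and listed at 0 in hypoxic cells. miR-412-5p, a Dlk1-Dio3 miRNA, had 32 exosome reads, a share at least 105 times higher than the 10-read minimum of the cells. miR-3586-5p had 23 reads (at least 75.6 times higher). The epithelial miR-205 and the erythroid miR-451-5p had 19 reads each (at least 62.5 times higher), and miR-375-3p of pancreatic islets and miR-1b of muscle had 10 reads each (at least 32.9 times higher). These 6 rest on few reads, and miR-205, miR-451-5p and miR-1b were present in normoxic cells with 54, 13 and 41 reads.

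In hypoxia the summed markers of liver, blood cells, neurons and epithelium took a larger share of exosomes than of cells, and those of endothelium a smaller one. The larger share of the neuron markers came through miR-129-5p. For liver, miR-122-5p made up 0.00212% of hypoxic cell reads and 0.172% of hypoxic exosome reads, and 0.00292% and 0.971% in normoxia, while miR-122-3p was at 0. For red and other blood cells 3 of 9 rows were found in any library, with 26 reads (0.000727%) in hypoxic cells and 242 reads (0.222%) in hypoxic exosomes, against 0.000979% and 0.309% in normoxia. miR-486 gave 223 of the 242 exosome reads but 15 of the 26 cell reads, beside 11 reads of miR-142-3p, and miR-144 and miR-223 were at 0 in all 4 libraries. miR-122-5p and miR-486 had fewer than 5 reads expected in hypoxic exosomes, and miR-451-5p was at 0 in hypoxic cells. These could be seen in exosomes only if enriched, so the read minimum fixed their direction. The same limit held for miR-122-5p and miR-486 in normoxia, where their cell shares lay below 0.0368%. For endothelium, miR-126a-3p went the other way in hypoxia, with 1042 reads in cells and 20 in exosomes, a ratio of 0.631 (0.384 to 0.980). For epithelium 19 reads of miR-205 (0.0175%) in hypoxic exosomes stood against 66 reads of miR-200c-3p (0.00184%) in hypoxic cells, the rest of 10 rows being at 0 in both. miR-205, at 0 in hypoxic cells, could be seen in exosomes only at a higher share. Of 12 rows for neurons, 7 were identified in hypoxic cells (0.557%) and 5 in hypoxic exosomes (8.19%), against 0.888% and 7.41% in normoxia, and miR-124 was at 0. miR-129-5p gave 8768 of the 8921 exosome reads of this list and 13123 of its 19915 cell reads. miR-128-3p (2737 cell and 23 exosome reads, ratio 0.276) and miR-129-1-3p (3711 and 32, 0.283) had lower shares in exosomes. miR-9a-5p and miR-9b-3p had higher shares, but with fewer than 5 reads expected could be seen there only if enriched. The muscle rows held 0.00528% of hypoxic cell reads and 0.00919% of hypoxic exosome reads, the latter being 10 reads of miR-1b. The part of serum or of other cells in the miR-122 and miR-486 values was not tested.

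Families with a common seed or gene cluster were followed next, from 25 lists. Of the 18 lists with 2 or more members in both libraries, 7 had a median ratio below 0.5 and 5 a median above 2, beside a median of 1.51 over all 138. Of the 5, the Dlk1-Dio3 list was high through miR-127-3p and miR-134-5p, and the blood, liver and endothelium list through miR-122-5p and miR-486. These members had fewer than 5 exosome reads expected and could be seen there only if enriched, so the read minimum fixed the side of both medians. The let-7 and miR-98 list, miRNAs that hold back growth genes such as Hmga2 in differentiated cells, was low throughout. Of its 9 members, 6 were depleted, 2 (let-7e-5p and miR-98-5p) were not identified in exosomes and only let-7i-5p lay within 2-fold, and the list went from 8.73% of the cell reads to 2.36% of the exosome reads. Behind a shared seed, its 7 members in both libraries still differed 27.2-fold in ratio. The miR-15, miR-16, miR-195, miR-497 and miR-322 list, miRNAs that repress cyclin mRNAs, had 5 members in cells with 9820 reads (0.274%), and none was identified in exosomes. The 3 members of the miR-29 list had 0.811% of the cell reads and 0.0165% of the exosome reads, and the 2 of the miR-26 list 1.33% and 0.0358%.

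Over all 337 identified miRNAs, 57.3% were seen only in cells, 13.1% were depleted and 18.4% were enriched, and the lists are read beside these shares. Other groups with lower shares in exosomes had an exception. In the miR-322, miR-503, miR-351, miR-542 and miR-450 cluster of the X chromosome, 12 arms went from 2.26% of the cell reads to 0.265% of the exosome reads, with 4 depleted and 7 not identified, the latter near the share over all miRNAs, and miR-351-3p alone was enriched (81 and 27 reads, ratio 11.0, 6.81 to 17.1). miR-351-3p had fewer than 5 exosome reads expected and could be seen there only if enriched. The miR-99, miR-100 and miR-125 list went from 4.55% to 0.619%, with 3 depleted, while miR-99a-5p had 196 and 36 reads, a ratio of 6.04 (4.11 to 8.65). In the miR-199a and miR-214 list, miRNAs made from the Dnm3os transcript, miR-199a-5p had a ratio of 0.0445 (0.0359 to 0.0546), miR-199a-3p 0.317 (0.297 to 0.338) and miR-214-3p 3.12 (2.89 to 3.38). Members of a single transcript thus lay on both sides of 1. The same was true of miR-24 and its cluster partners miR-23 and miR-27, where miR-27b-3p had 0.102 and miR-24-3p 2.15, and whose summed share, 4.10% in cells and 4.01% in exosomes, hardly differed. Of the miR-17 to 92 and related clusters, 15 arms were identified in either library, of which 9 (near the share over all miRNAs) were seen only in cells, 2 were depleted, and 1, miR-106b-3p at 3.05 (2.53 to 3.66), was enriched.

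The remaining lists lay between. Of the miR-30 list, 2 members were depleted, miR-30a-5p lay within 2-fold at 1.48 (1.37 to 1.59) and 2 were seen only in cells, with 1.86% of the cell reads and 1.11% of the exosome reads. Of the miR-34 and miR-449 list, in which the miR-34 genes are targets of p53, 2 were depleted, 1 lay within 2-fold and 2 were seen only in cells (0.401% and 0.141%). The p27-repressing miR-221 and miR-222 held 1.84% and 1.64%, the miR-181 list 0.613% and 0.401%, and miR-143 and miR-145 together 4.39% and 6.08%. The miR-103 and miR-107 pair held 0.540% and 0.0156%, and the miR-130 and miR-301 list had 330 cell reads and was not identified in exosomes. At an equal share miR-130a-3p had 8.31 exosome reads expected and miR-301a-3p 1.73. Both lay below the read minimum, so their absence does not show a lower share. The same limit held for the cell-only miR-449a-5p (7.61 expected) and miR-449c-5p (1.43). miR-484, grouped with miR-320 for its unusual processing, was seen only in cells with 439 reads.

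The lists with high ratios were small. miR-146 went from 0.730% of the cell reads to 17.98% of the exosome reads through miR-146a-5p alone, since miR-146b-5p had 9493 reads (0.265%) in cells and 412 (0.378%) in exosomes, a ratio of 1.43 (1.29 to 1.57). The 2 ratios differed 26.5-fold, although both miRNAs carry the seed GAGAACU printed above. From the introns of Clcn5, miR-532-5p (6.22, 5.84 to 6.61), miR-500-3p (11.9, 6.40 to 21.1) and miR-362-3p (2.08, 1.15 to 3.50) were enriched and 3 further arms were seen only in cells. From an intron of Ptk2, both arms of miR-151 were enriched, the 3p arm at 14.9 (14.0 to 15.8) and the 5p arm at 10.4 (8.62 to 12.6), whereas the related miR-28-3p had 1.02 (0.836 to 1.23). The 3 miRNAs of the miR-148 and miR-152 list, repressors of Dnmt1, lay close together at 1.5 to 1.93. The neuronal list had a low median, 0.283, but split. Its miR-129-5p stood at 22.0 and miR-9a-5p at 12.8 (8.73 to 18.4) against miR-7a-5p at 0.122, miR-128-3p at 0.276 and miR-129-1-3p at 0.283. Of the 80 rows of the Dlk1-Dio3 region 10 were identified, miR-127-3p and miR-134-5p (18.6, 12.9 to 26.6) as enriched, miR-412-5p in exosomes only and 7 in cells only with 14 to 41 reads. The 7 had fewer than 5 exosome reads expected, so their class cannot be told. miR-127-3p, miR-134-5p, miR-500-3p and miR-9a-5p also had fewer than 5 expected and could be seen in exosomes only if enriched. miR-362-3p, with 7.21 expected, could be seen there only at a higher share than in cells.

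**Figure D3:**
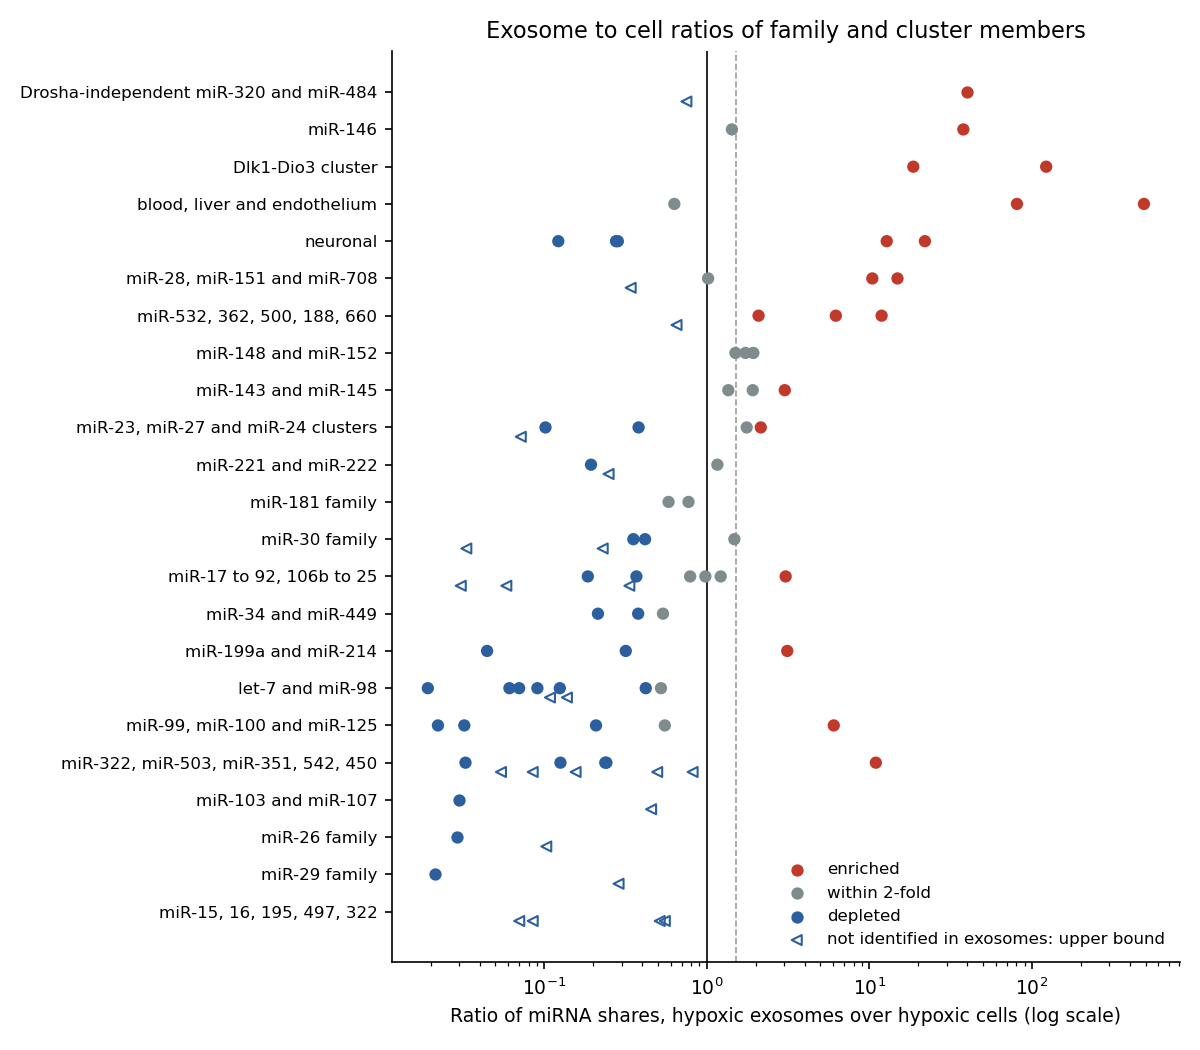
Ratio of the share in hypoxic exosomes to that in hypoxic cells (x axis, log scale) for the members of each miRNA list (rows), with filled points coloured by class, open triangles for the highest ratio that fewer than 10 exosome reads allow (10 or more reads expected), a solid line at 1 and a dashed line at the median of 1.51. The let-7, miR-26, miR-29 and miR-15 rows hold no enriched point, and the miR-146 row holds 1 enriched member and 1 within 2-fold.

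Both arms of a hairpin come from the same precursor, and their ratio within a library does not depend on how libraries are scaled. Arms were paired where their names differ only in 5p and 3p. There were 13 hairpins paired in this way with 20 or more exosome reads expected for each arm. The 3p arm had the higher ratio in 8, the 5p arm in 2 (miR-423 and miR-143), and in 3 the order could not be determined. In 6 of the 13, the arm that was the minor one in cells was not identified in exosomes. Among those of the 13 with both arms in exosomes, the largest shift was in miR-423. Its 5p arm had 2169 of the reads and its 3p arm 9048 in cells, against 4243 and 287 in exosomes. The 5p arm thus made up 19.3% of the hairpin's reads in cells and 93.7% in exosomes, a 61.7-fold change of the arm ratio (54.2 to 70.1). In miR-99b the 3p arm went from 3.03% to 39.5% (20.9-fold), and in let-7d from 13.8% to 57.1% (8.35-fold, on 28 exosome reads). In miR-199a the 5p arm, the minor arm in cells, went the other way, from 41.3% to 8.98%. miR-27a kept its arm ratio, with a 1.02-fold change. Outside the 13, with a scarce arm that could be seen in exosomes mainly if it was high there, 7 more hairpins paired by name differed more than 4-fold, all with the minor arm higher. These were miR-125a (235-fold, on 12 and 16 exosome reads), miR-351 (87.1), miR-21 (19.7), miR-23a (15.3), miR-10b (8.80), miR-339 (7.94) and miR-146b (6.63). Arms whose names carry a locus number were not paired, though some had 20 or more exosome reads expected for each arm. miR-125b-5p had a ratio of 0.0322 and miR-125b-1-3p 22.3, while miR-129-5p had 22.0 and miR-129-1-3p 0.283. Both of these pairs lay further apart than the arms of miR-423. miR-24-3p had 2.15 and miR-24-2-5p 0.790.

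**Figure D4:**
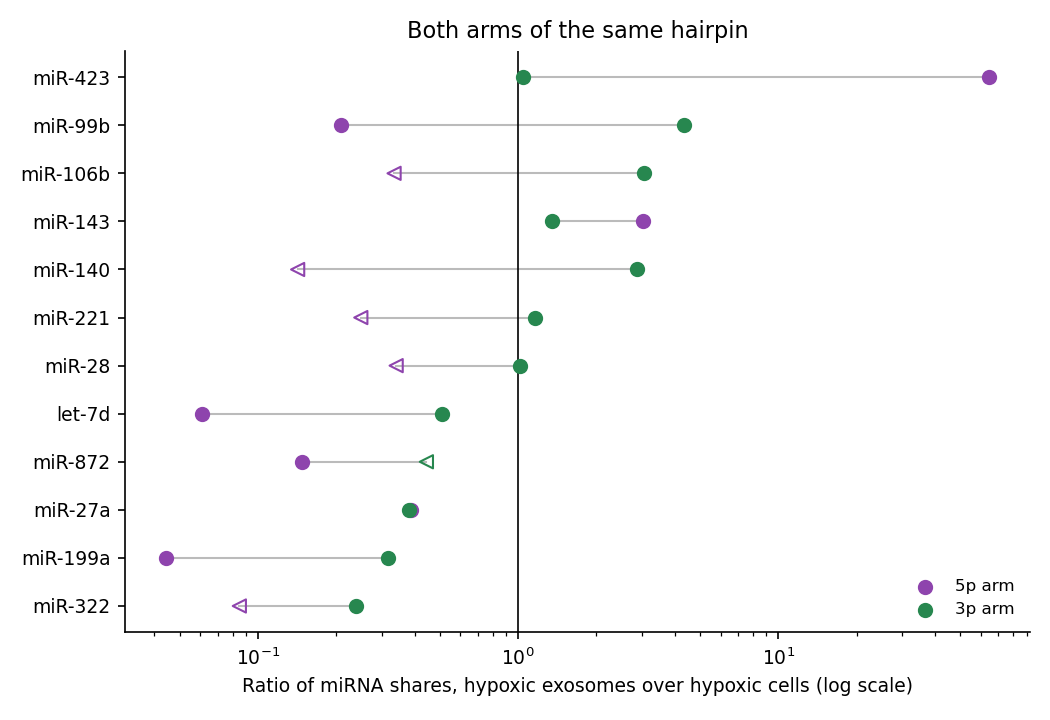
Ratio of the share in hypoxic exosomes to that in hypoxic cells (x axis, log scale) for the 5p arm (purple) and the 3p arm (green) of the 12 hairpins paired by name, with at least 1 arm in exosomes and 20 or more exosome reads expected for each arm, and with open triangles for the highest ratio that fewer than 10 exosome reads allow. miR-423-5p lies far to the right of its 3p arm, while in most other rows the green point lies to the right.

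The mature sequences differed in base composition between the classes, a property that the ratio did not use. In the set with 20 or more reads expected, the median content of G and C was 54.5% in 20 enriched miRNAs, 47.8% in 23 within 2-fold, 45.0% in 41 depleted and 40.9% in 32 not identified in exosomes. Of 28 miRNAs below 40% G and C none was enriched, 12 were depleted and 15 not identified in exosomes. Of 9 miRNAs at 60% or more, 6 were enriched, 2 were depleted (miR-99b-5p and miR-351-5p) and none was missing from exosomes. Spearman's rho of composition and ratio was 0.48 over the 127 miRNAs in both libraries with a sequence and 0.43 over the 84 of them with 20 or more reads expected, and 0.26 over 65 in the normoxic pair, all points of a pair coming from the same 2 libraries. Averaged over reads, G and C made up 48.2% in exosomes and 41.3% in cells, or 48.5% and 46.1% without miR-21-5p, over the 85.0% of exosome reads and 98.2% of cell reads that had a sequence. The leading enriched miRNAs miR-146a-5p at 40.9% and miR-22-3p at 45.5% lay at or below the median of 45.5% over this set of 116. The effect of composition on ligation or PCR was not tested.

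**Figure D5:**
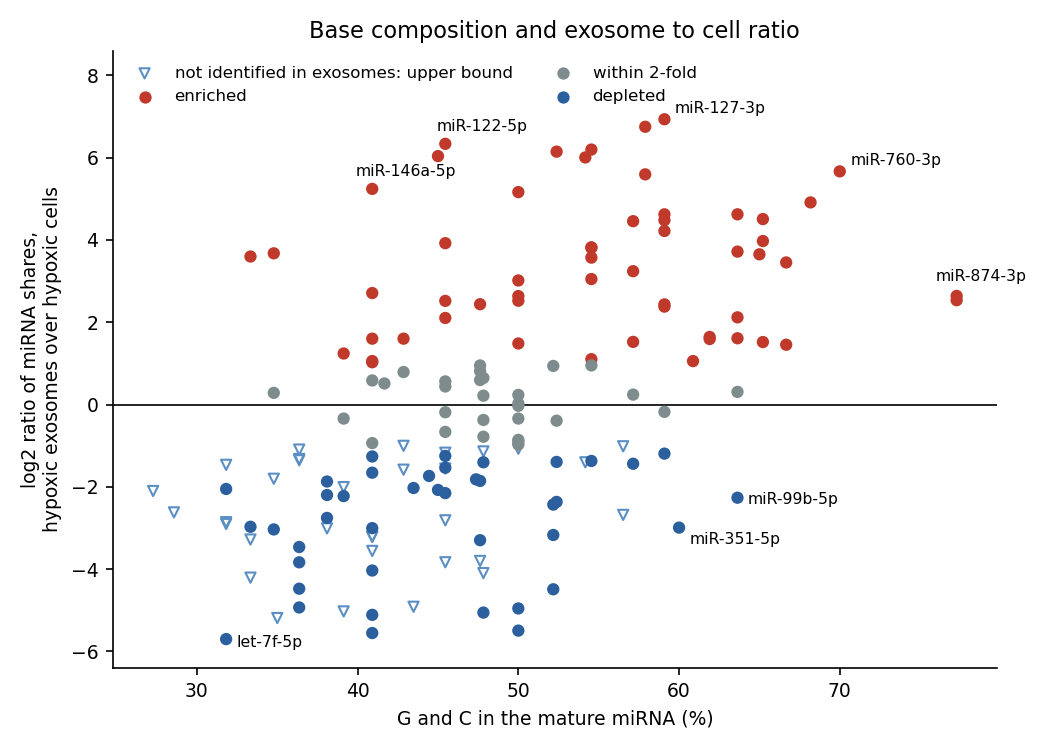
Content of G and C in the mature miRNA (x axis, %) against the log2 ratio of shares in hypoxic exosomes and hypoxic cells (y axis), 1 point per miRNA, coloured by class, with open triangles for the highest ratio that fewer than 10 exosome reads allow (20 or more expected). Below 40% few points lie above 0, while miR-146a-5p at 40.9% and miR-122-5p at 45.5% are high without a high G and C content.

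The 4-base motif GGAG, described in human T cells as a sorting signal bound by hnRNPA2B1, was present on the mature strand of 19.6% of enriched and 2.44% of depleted miRNAs, beside 7.98% of all 689 sequences. In the set with 20 or more reads expected it was in 3 of 20 enriched and 1 of 41 depleted sequences, and in 3 of 32 not identified in exosomes. Such a match is a description of the letters only, and with 4 motifs counted and sequences of high G and C content among the enriched, its excess was small in number. For GGCU the shares were 17.9% and 14.6%, beside 10.7% of all. UGCC was in 8.93% of enriched and no depleted sequence, beside 10.4% of all, and CCCU in 7.14% and 14.6%, beside 9.58%. U was the first base of 30.4% of enriched and 56.1% of depleted sequences, beside 36.1% of all. In the set with 20 or more reads expected it came first in 6 of 20 enriched and 23 of 41 depleted sequences. There it also came first in 16 of 32 not identified in exosomes, and in 56 of all 116 (48.3%). Against that set the excess of U among depleted sequences was smaller.

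The ratios were compared with those of the normoxic pair, 2 libraries that the hypoxic pair does not share. In the normoxic pair 31 (42.5%) of the 73 miRNAs in both libraries were enriched and 22 (30.1%) depleted. Normoxic exosomes held only 13598 miRNA reads, so a miRNA below 0.0735% of the normoxic cell reads could be seen in them only with a ratio above 1, and below 0.0368% only with a ratio above 2. All 4 libraries held 71 miRNAs, of which 22 had this limit on the side of 1 and 16 of those the limit on enrichment, and their side in normoxia was fixed by this minimum. Of the other 49, 39 lay on the same side of 1 in both pairs. Of the 30 of the 71 that were enriched in hypoxia, 26 were also enriched in normoxia, but 15 of the 30 had to be. A set free of this limit, chosen after seeing the data, was the 57 miRNAs with 20 or more exosome reads expected in both pairs. Of these 8 were enriched in hypoxia, of which 5 were enriched and none depleted or missing in normoxia, the other 3 being miR-24-3p, miR-140-3p and miR-214-3p (1.35, 1.65 and 0.938). Of the 33 that were depleted or not identified in hypoxic exosomes, 32 were so in normoxic exosomes too. miR-146a-5p had 25.1 in normoxia (37.8 in hypoxia), miR-22-3p 24.4 (15.2), miR-129-5p 8.87 (22.0) and miR-320-3p 111 (40.1). Among the lowest, let-7f-5p had 0.109 (0.0192), miR-26a-5p 0.298 (0.0289) and miR-199a-5p 0.0572 (0.0445). Single ratios such as that of miR-26a-5p lay far apart, and whether the pairs differ was not tested.

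The count on each side of 1 depends on what the shares are taken of. With the total taken without miR-21-5p, every log2 ratio shifts by -0.93, and 48 miRNAs were above 2 and 56 below 0.5. With the median ratio set to 1 (shift -0.59) there were 53 and 50, and after trimmed-mean scaling of the ratios (-0.69) 48 and 54. By RPM as deposited, where the miRNA yield of the library counts (-4.93), there were 8 and 116. The enriched share of all calls was 58.5% by share of the miRNA total and 46.2%, 51.5%, 47.1% and 6.45% in the order above. The 8 miRNAs above 2 even by RPM were miR-486, miR-127-3p and miR-193b-3p at 3.53 to 16, then miR-122-5p and its partner miR-3591, miR-378a-3p and its partner miR-3557-5p, and miR-423-5p at 2.10 to 2.65. miR-146a-5p and miR-320-3p stood above 1 on every scale, at 1.24 and 1.31 by RPM, whereas miR-22-3p (0.496) and miR-129-5p (0.719) lay below 1 by RPM. Of the lists with high medians, that of miR-146 stood at 0.642 by RPM, the Clcn5 list at 0.203 and the list of miR-28, miR-151 and miR-708 at 0.341. miRNAs with ratios just above 1 change side on the other scales too, such as miR-143-3p (0.713) and miR-210-3p (0.651) with the total taken without miR-21-5p. The order of the miRNAs and the arm ratios are the same on all these scales.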

How the data were processed

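The authors made 1 small RNA library of each of 4 materials, normoxic and hypoxic H9c2 cells and their exosomes, and deposited RPM for 765 mature miRNAs. The submitters' processing notes name the build Rnor 6.0, while the aligner and the counter, and the set of reads that RPM was scaled to, are not given in the sources here. Whether RNA was pooled from replicate cultures before sequencing is not clear from the methods, and each group had 1 library here, so no test was run.

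From the RPM values the read scale of each library was recovered (100% of values within 0.1 of a whole read, smallest value 10 reads). Shares of the miRNA total, ratios of shares and 95% exact (Clopper-Pearson) intervals were computed, with thresholds of 2 and 0.5. The 95% intervals of arm ratios are normal approximations on the log scale (z of 1.96). A miRNA under 10 reads is listed at 0, and bounds were set at 10 reads. Read recovery and the exact intervals had first been tested on simulated data. Matches to RefSeq mature sequences were made by name.

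Named were the 12 most abundant miRNAs of each library, the 15 highest ratios (50 or more exosome reads), the 15 lowest (50 or more cell reads), the 15 most abundant cell-only and all exosome-only miRNAs, hairpins whose arm ratio differed more than 4-fold, those the study names, and members of the 25 lists. Members and lists were chosen with earlier results of these data known. miR-186-5p, miR-674-5p, miR-452-5p and the sequence motifs of the text are outside or beside that rule. Alternatives were other scalings, folds and minimums. The work used scipy 1.17.1, matplotlib 3.10.9, pandas 2.3.3 and numpy 2.4.6 under Python 3.11.15.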

Additional observations from a re-analysis of the deposited data

Results flagged for a closer look

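For 6 of the 71 miRNAs identified in all 4 libraries the ratio of exosomes to cells lay on opposite sides of 1 in the hypoxic and the normoxic pair, with both counting intervals clear of 1. Each pair is 2 single libraries, and the difference between pairs was not tested. Higher in exosomes in hypoxia and lower in normoxia were miR-143-3p (1.36 and 0.430), miR-146b-5p (1.43 and 0.312) and miR-30a-5p (1.48 and 0.637). Lower in exosomes in hypoxia and higher in normoxia were miR-100-5p (0.552 and 1.26, interval from 1.003), miR-126a-3p (0.631 and 6.45) and miR-128-3p (0.276 and 2.06). Relative to the median of each pair over the 71 miRNAs (1.48 and 1.26), miR-126a-3p (0.427 and 5.10) and miR-128-3p (0.187 and 1.62) lay on opposite sides, while the values of the other 4 were at or below 1 in both. miR-126a-3p rests on 20 exosome reads in hypoxia and 23 in normoxia, and miR-128-3p on 23 and 19. The normoxic cell shares of miR-126a-3p (0.0262%) and miR-128-3p (0.0680%) lay below the 10-read minimum of normoxic exosomes (0.0735%), so both could be seen there only with a ratio above 1.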

How the results depend on the processing

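The 62 enriched miRNAs became 8 by RPM as deposited, 30 with 50 or more reads in both libraries, and 194 with no minimum when miRNAs listed at 0 were set to 10 reads, a value that for cell-only miRNAs is only an upper bound. The 44 depleted miRNAs became 116 by RPM, 28 at a fold of 4, 22 with 50 or more reads and 78 with no minimum. Of the 193 cell-only miRNAs, 115 had 50 or more cell reads, 45 had 10 or more and 17 had 50 or more exosome reads expected. Among hairpins paired by name, the minor arm had the higher share in 13 of 16 with both arms in both libraries. It did so in 3 of 5 with 50 or more reads for each arm, and in 5 of 13 with 20 or more expected. With 20 or more reads expected, there were 22 enriched miRNAs and 78 depleted or not identified. These settings of 20 expected reads were chosen after seeing the data. The 7 lists with a median below 0.5 became 15 by RPM. Under the other scalings and folds, and for intervals wholly past the fold, enriched counts were 48 to 70, depleted counts 39 to 56 and lists 9 to 10. Of 42 named miRNAs in both libraries, 23 had a ratio above 1, and 11 by RPM (19 to 20 under the other scalings). By RPM 7 named enriched miRNAs crossed from above to below 1, miR-125b-1-3p (0.731), miR-129-5p (0.719), miR-134-5p (0.609), miR-151-3p (0.487), miR-22-3p (0.496), miR-24-3p (0.0703) and miR-532-5p (0.203). RPM changes every ratio by the same factor, 0.0327, the ratio of miRNA yields. No paired analysis was possible because each group had 1 library and the labels give no replicate numbers. Depth limits the comparison to miRNAs above 0.00919% of the exosome reads, and with 1 library a side the spread between preparations is unknown.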
